A study of Drosophila melanogaster with 12 samples.

Results

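The transcripts described here were those whose array signal was higher after rapamycin feeding in Drosophila melanogaster larvae of both genotypes studied, REPTOR knockout and control. They were chosen from the deposited values on the log2 scale, in 4 steps. For every target sequence with an FBtr name (a FlyBase transcript identifier), the probe with the highest mean over all arrays stood for the target, and its rapamycin effect was the mean of the rapamycin arrays minus the mean of the ethanol arrays within a genotype. A target was kept if its effect was at least 0.7 in both genotypes, if the knockout effect was at least 0.5 of the control effect, and if in each genotype every rapamycin array lay above every ethanol array. A limit of 150 was set on the number kept, by the largest mean of both effects, and exactly 150 of 15868 FBtr targets met the other parts (0.945%), so the limit left none out.

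Rapamycin blocks TORC1, the kinase complex that couples nutrient supply to growth in animal cells, and larvae that eat it slow their growth. REPTOR is a transcription factor of the bZIP family that TORC1 keeps inactive, and it becomes active in the nucleus when TORC1 is inhibited. Transcripts that rise with rapamycin in a REPTOR knockout as well as in a control are therefore ones whose rise was still measured where the REPTOR gene is disrupted.

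The study measured total RNA of larvae on 12 one-colour Agilent arrays (Cy3), with 3 arrays described as biological replicates in each of 4 groups. The groups were REPTOR knockout larvae (labelled REPTOR_KO) on rapamycin food, REPTOR knockout larvae on ethanol food, control larvae (labelled w1118) on rapamycin food and control larvae on ethanol food. Rapamycin was given at 200 µM and ethanol alone served as its control, each for 6 h. All larvae are labelled female, growth controlled and synchronized, and were taken at 48 h prewandering, and 0.5 µg of RNA was labelled for each array. Whole-larva RNA mixes tissues, so fewer cells of a type and less RNA per cell cannot be told apart in any value below.

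On each array 72.5% to 82.7% of spots stood well above background, with 0 saturated, and the number of arrays limits the precision. None of the targets with a gene name was REPTOR, so the targeted gene gave no check of the genotype labels. Of 25857 targets, 425 could be given exactly 1 gene symbol, and 0 of the 150 members were among them. The members are therefore described by their values, their counts and a few FBtr identifiers, with no gene name or role.

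Before the members' values, 3 arrays have to be set apart. RoX1 and roX2 are noncoding RNAs of the dosage compensation complex, which works on the male X chromosome. The brighter target of roX2 had deposited log2 signals of 10.36, 9.26 and 5.89 in REPTOR knockout larvae on rapamycin food, against 4.82, 5.34 and 5.10 on ethanol food. In control larvae it had 4.80, 4.84 and 9.08 on rapamycin food, against 5.34, 5.12 and 5.17 on ethanol food. The other target of roX2 had 9.46, 8.31 and 5.39 in REPTOR knockout larvae on rapamycin food, against 5.15, 5.30 and 5.10 on ethanol food. In control larvae that target had 4.83, 4.69 and 6.95 on rapamycin food, against 5.06, 5.08 and 5.21 on ethanol food. The brighter target of roX1 had 14.72, 13.62 and 10.31 in REPTOR knockout larvae on rapamycin food and 9.46, 9.26 and 9.37 on ethanol food. In control larvae the same target had 10.92, 11.23 and 14.20 on rapamycin food and 10.62, 10.01 and 10.69 on ethanol food. Both RNAs were thus raised on the arrays labelled REPTOR knockout rapamycin 1 and 2 and control rapamycin 3, although all samples are labelled female. REPTOR knockout rapamycin 3, called unraised below, lay above the REPTOR knockout ethanol arrays in these brighter targets by less. The brighter target of roX2 was well above background on it and on no REPTOR knockout ethanol array. It is the only REPTOR knockout rapamycin array in the values without the 3 arrays, so those values may not be free of this signal. The summed intensity of the measured male genes, 2 of 3 listed, ran from 1929 to 37913 in REPTOR knockout larvae on rapamycin food and from 1064 to 1157 on ethanol food, and from 3015 to 26397 in control larvae on rapamycin food and from 1630 to 2446 on ethanol food. No raised array was found among the 6 ethanol arrays, so the members' rapamycin effects are given with these 3 arrays and without them. What made these arrays differ was not tested.

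Over the 150 members, the rapamycin effect had a median of 1.59 in REPTOR knockout larvae, with a range from 0.71 to 4.38. In control larvae the median was 1.18, with a range from 0.71 to 4.15. The effect was larger in the knockout than in the control for 101 of 150 members, and the ratio of the knockout effect to the control effect had a median of 1.53. Without the 3 arrays the median effect was 0.65 in REPTOR knockout larvae and 0.65 in control larvae. These effects chose the members, so they are descriptions and no test was made of them.

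With the 3 arrays left out, 55 of the 150 members still met every part of the rule, and the other 95 did not. Over all FBtr targets, 97 of 15868 (0.611%) met every part without those arrays. This division was made after the values had been seen, and it uses the same values as the rule.

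The size of these effects depends on the scale. On the background-corrected scanner signal, taken as log2 relative to each array's 75th percentile and called scaled below, the median effect over the 150 members was 2.29 in REPTOR knockout larvae and 1.81 in control larvae. Without the 3 arrays it was 0.96 in REPTOR knockout larvae and 0.99 in control larvae. For the 55 the scaled medians without the 3 arrays were 1.13 in REPTOR knockout larvae and 1.32 in control larvae, and for the 95 they were 0.78 in REPTOR knockout larvae and 0.75 in control larvae. All parts of the rule were met on scaled values without the 3 arrays by 51 of the 55 and by 22 of the 95, so where the line between the sets falls depends on the values used.

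**Figure D1:**
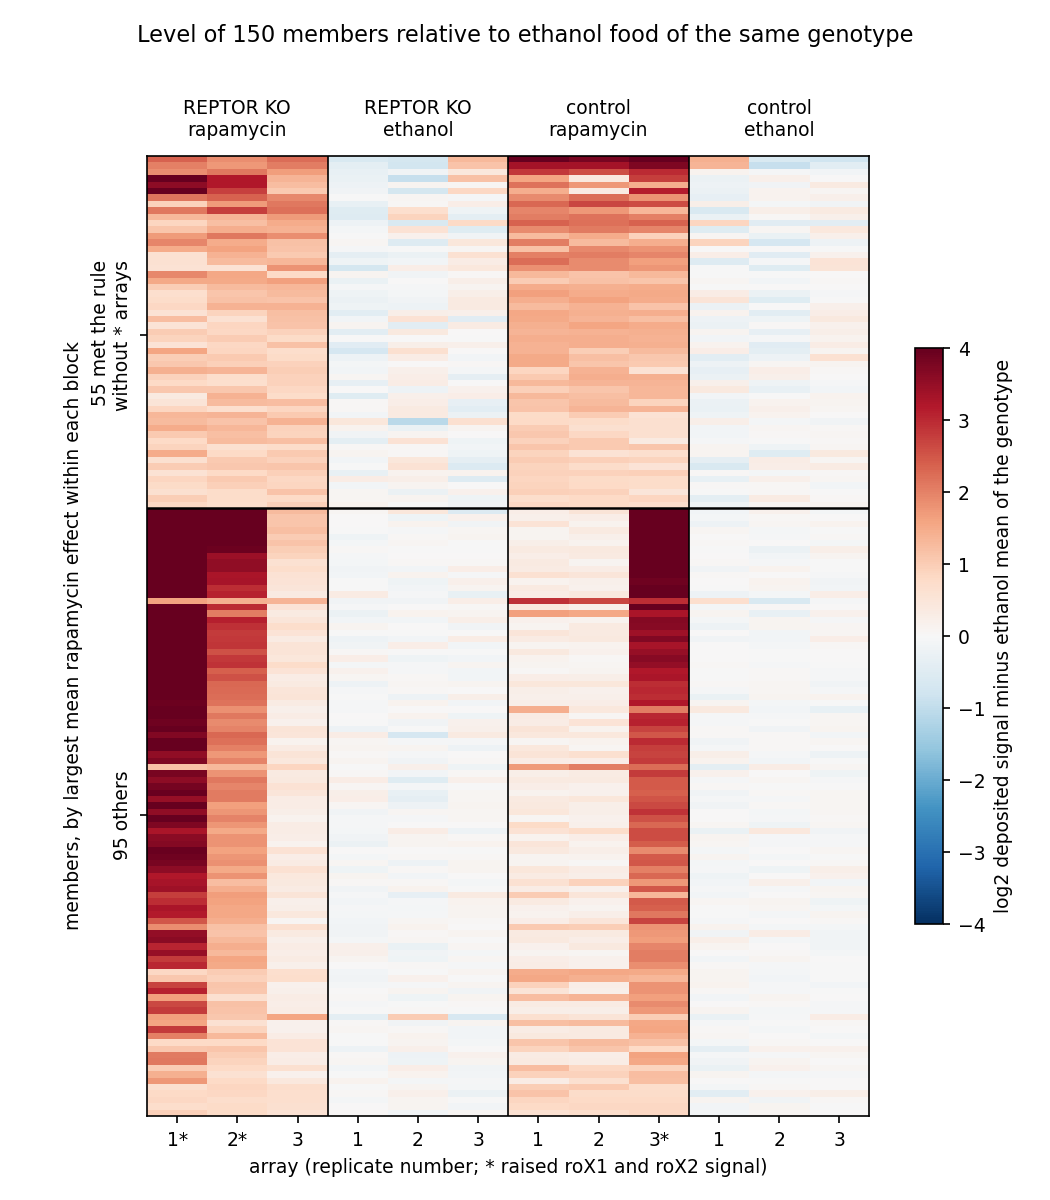
Colour shows the deposited log2 signal of each of the 150 members (rows of the picture) on each of the 12 arrays (columns) minus the mean of the ethanol arrays of the same genotype, with the scale ending at 4 in both directions. In the upper block of 55 members the 6 rapamycin arrays are mostly red, while in most of the lower 95 the deep colour stands on the 3 arrays marked with an asterisk, REPTOR knockout rapamycin 1 and 2 and control rapamycin 3.

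By the rule and the division, the 55 members were higher on rapamycin food on both raised and unraised arrays. Their probes were bright enough to be measured in every group. Their median deposited log2 signal was 12.24, 12.16 and 12.19 on the REPTOR knockout rapamycin arrays, against 10.76, 10.93 and 10.99 on the REPTOR knockout ethanol arrays. It was 12.38, 12.45 and 12.27 on the control rapamycin arrays, against 10.71, 10.72 and 10.76 on the control ethanol arrays. In these medians the arrays with raised roX2 were not apart from the others, and all 55 members were well above background on all 12 arrays. Their median effect was 1.05 in REPTOR knockout larvae (0.75 to 3.04) and 1.30 in control larvae (0.72 to 4.15). Without the 3 arrays it was 1.13 in REPTOR knockout larvae and 1.33 in control larvae. The raised arrays minus the other rapamycin arrays had a median of -0.06 in REPTOR knockout larvae and of -0.05 in control larvae. Single members departed from this, with values up to 2.52 in REPTOR knockout larvae and 2.26 in control larvae, and 2 of the 55 were over 1 in both. The knockout effect exceeded the control effect in 21 of these 55, and the median ratio of knockout to control effect was 0.86.

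The rule left out targets whose rapamycin and ethanol arrays overlapped, so it also limited the spread of replicates of these 55. The SD over 3 arrays had a median of 0.228 and 0.319 log2 units in REPTOR knockout larvae on rapamycin and ethanol food. It was 0.144 and 0.243 in control larvae on rapamycin and ethanol food. For the other members it was lower on ethanol food, at 0.132 in REPTOR knockout larvae and 0.098 in control larvae. On rapamycin food it was higher for them, at 1.66 and 1.26. The distance between the lowest rapamycin array and the highest ethanol array was at least 0.5 in both genotypes for 22 of the 55 and under 0.2 in either genotype for 9.

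FBtr0084864 had the highest mean effect among the 55. Its deposited log2 signal was 12.55, 12.06 and 12.42 in REPTOR knockout larvae on rapamycin food, against 9.58, 9.48 and 11.49 on ethanol food. In control larvae it was 13.32, 12.72 and 13.20 on rapamycin food, against 10.35, 8.30 and 8.13 on ethanol food. The groups on rapamycin and ethanol food did not overlap in either genotype, but 1 ethanol array of each genotype lay well above the other two. The effect was 2.16 in REPTOR knockout larvae and 4.15 in control larvae, and 2.23 in REPTOR knockout larvae and 4.09 in control larvae without the 3 arrays, so its ratio lay close to the lower limit of the rule.

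The other 95 members were of mixed kinds. Of these, 61 were not well above background on all 6 ethanol arrays, and all 61 were over 1 log2 unit higher on the raised than on the other rapamycin arrays in both genotypes. The remaining 34 were well above background on every ethanol array, and among them 14 had such a step in both genotypes and 12 had a step under 0.5 in both. Over the 95 the median deposited log2 signal was 9.64, 7.79 and 5.93 on the REPTOR knockout rapamycin arrays, against 5.38, 5.40 and 5.45 on the REPTOR knockout ethanol arrays. It was 5.54, 5.50 and 8.46 on the control rapamycin arrays, against 5.29, 5.22 and 5.31 on the control ethanol arrays. The unraised REPTOR knockout array and the 2 unraised control arrays on rapamycin food were thus within 1 log2 unit of the ethanol arrays in their deposited medians. On scaled values the unraised REPTOR knockout array had a median of -6.04, against -7.05, -7.15 and -7.37 on the REPTOR knockout ethanol arrays. The unraised control arrays had -6.78 and -6.79, against -7.58, -7.47 and -7.39 on the control ethanol arrays. The effects that follow are on deposited values. The median effect was 1.95 in REPTOR knockout larvae (0.71 to 4.38) and 1.11 in control larvae (0.71 to 2.85), and without the 3 arrays it was 0.42 in REPTOR knockout larvae and 0.33 in control larvae. For the 61 the median effect without the 3 arrays was 0.35 in REPTOR knockout larvae and 0.27 in control larvae, and for the 34 it was 0.53 in REPTOR knockout larvae and 0.79 in control larvae. The knockout effect exceeded the control effect in 80 of the 95, with a median ratio of 1.86. The knockout group held 2 raised arrays of 3 and the control group 1 of 3.

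**Figure D2:**
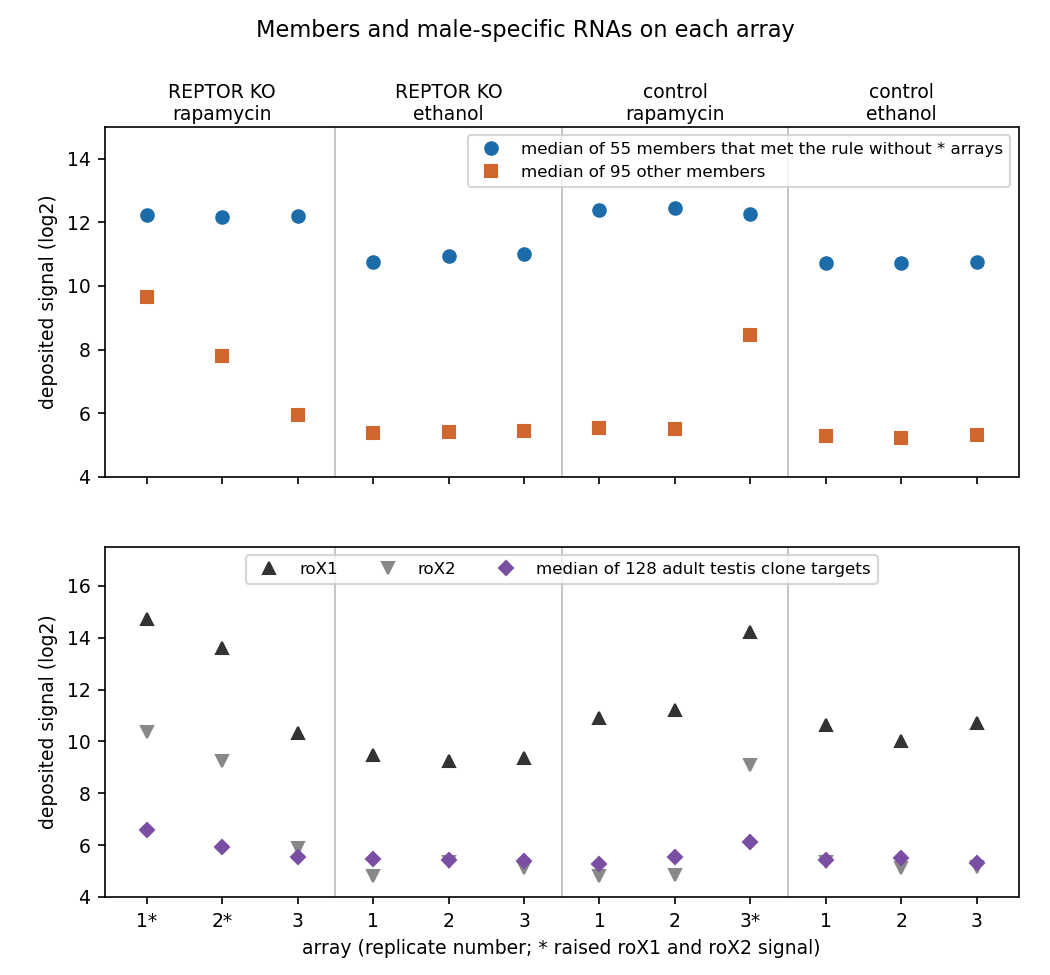
The upper panel plots, for each of the 12 arrays, the median deposited log2 signal of the 55 members that met the rule without the 3 marked arrays (circles) and of the 95 others (squares), and the lower panel plots the brighter target of roX1, roX2 and the median of 128 targets from adult testis clones on the same arrays. The circles lie between 12.16 and 12.45 on all rapamycin arrays, while the squares are highest, at 9.64, 7.79 and 8.46, on the 3 arrays where roX1 and roX2 are raised.

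Most members of the 95 followed the same arrays, the 12 above aside. The raised arrays minus the other rapamycin arrays had a median of 2.43 log2 units in REPTOR knockout larvae and of 2.18 in control larvae. The array labelled control rapamycin 3 was the highest control rapamycin array in 86 of the 95, and REPTOR knockout rapamycin 3 was the lowest knockout rapamycin array in 93. Both held in 85. Across all 150 members, the step from unraised to raised arrays in REPTOR knockout larvae and the same step in control larvae had a Pearson r of 0.952, a description over 150 points that all share the same 6 rapamycin arrays.

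A step of over 1 log2 unit on the raised arrays in both genotypes was seen in 77 of the 150 members (51.3%), of which 75 were among the 95. It was seen in 1016 of all 15868 FBtr targets (6.4%). Among 128 targets with AT clone names, the prefix of an adult testis cDNA library, 25 had such a step (19.5%), and 1 of the 128 met all parts of the rule other than the FBtr name. The median deposited log2 signal of these 128 was 6.58, 5.93 and 5.53 in REPTOR knockout larvae on rapamycin food and 5.45, 5.43 and 5.37 on ethanol food. In control larvae it was 5.29, 5.53 and 6.13 on rapamycin food and 5.42, 5.50 and 5.32 on ethanol food. Of 42 listed testis genes, f-cup was the one measured, and its intensity did not follow the raised arrays: it ran from 1157 to 1299 in REPTOR knockout larvae on rapamycin food and from 1035 to 1052 on ethanol food, and from 3184 to 3386 in control larvae on rapamycin food and from 1059 to 1127 on ethanol food. None of the listed markers of fat body, gut, muscle, salivary gland or haemocytes was measured by a named target. The part of other tissues in the members' values was not tested.

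FBtr0079379 had the highest mean effect of all members, 4.38 in REPTOR knockout larvae and 2.23 in control larvae. Its effect without the 3 arrays was 1.27 in REPTOR knockout larvae and 0.39 in control larvae, and the control value is below the minimum of the rule. Its deposited log2 signal was 12.18, 9.91 and 6.38 in REPTOR knockout larvae on rapamycin food, against 5.19, 5.56 and 4.57 on ethanol food. In control larvae it was 5.12, 5.38 and 10.78 on rapamycin food, against 4.76, 5.03 and 4.79 on ethanol food. The rapamycin arrays cleared the ethanol arrays in both genotypes, but in control larvae 2 of the 3 did so by less than 1 log2 unit. It was well above background on all 3 REPTOR knockout rapamycin arrays, 1 REPTOR knockout ethanol array, 1 control rapamycin array and no control ethanol array.

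In the order of the members by mean effect, 8 of the first 10 and 15 of the first 20 belonged to the 95. On the raised arrays those 8 had deposited log2 signals from 11.04 to 12.47 on REPTOR knockout rapamycin 1, from 8.88 to 10.06 on REPTOR knockout rapamycin 2 and from 9.75 to 10.78 on control rapamycin 3. On the unraised rapamycin arrays they had 6.00 to 6.61 in REPTOR knockout larvae and 4.96 to 5.60 in control larvae. On ethanol food the range was 4.57 to 5.71 in REPTOR knockout larvae and 4.60 to 5.44 in control larvae. The remaining 2 of the first 10 were FBtr0084864 and a target with 13.00 to 13.29 in REPTOR knockout larvae on rapamycin food, 10.51 to 12.38 on ethanol food, 13.29 to 13.70 in control larvae on rapamycin food and 9.03 to 11.32 on ethanol food.

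**Figure D3:**
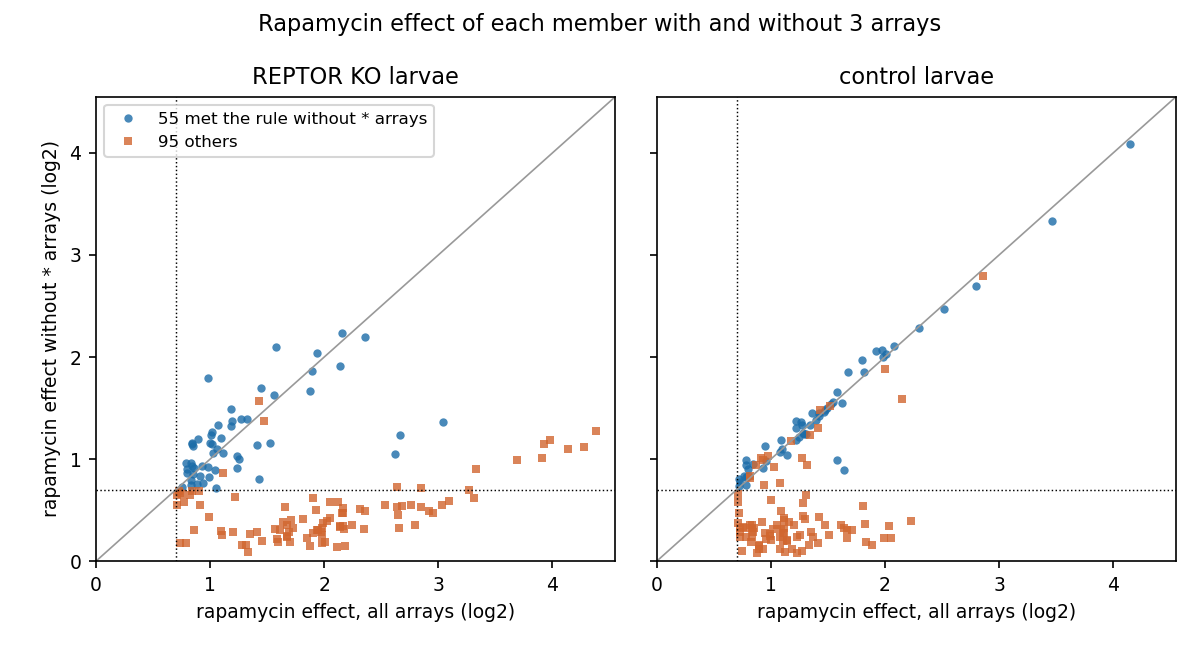
Each point is a member, with its rapamycin effect (log2) over all arrays on the horizontal axis and without the 3 arrays with raised roX2 on the vertical axis, for REPTOR knockout larvae on the left and control larvae on the right. Dotted lines mark the rule's minimum of 0.7 and the grey line marks equal values. Most of the 55 (circles) lie along the grey line, while most of the 95 (squares) lie below the horizontal dotted line.

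Many members of the 95 were not measurable on ethanol food. On the 6 ethanol arrays, 36 of the 95 were well above background on none, and 34 were on all, while all 95 were well above background on all 3 raised arrays. On the 3 unraised rapamycin arrays, 16 of the 95 were well above background on none. Where every ethanol array of a genotype was below this limit, a fold was computed from the scaled signal. Its ethanol side was the higher of the lowest signal well above background on each array and the probe's own. Its rapamycin side was the mean of all rapamycin arrays, including any below the limit. The fold is therefore a lower bound only where no rapamycin array was below the limit. FBtr0079379 in control larvae had 7.05-fold with 1 rapamycin array above the limit. In REPTOR knockout larvae 39 members had such a fold, with a median of 13.0-fold higher on rapamycin food. In control larvae 52 had one, with a median of 4.05-fold. These folds rest on the raised arrays in most members. Without those arrays 23 of the 39 still had a fold in REPTOR knockout larvae, with a median of at least 2.52-fold. The other 16 were not well above background on the remaining rapamycin array. In control larvae 12 of the 52 still had one, with a median of 2.11-fold, and 4 were well above background on both remaining arrays. The other 40 were not well above background on either remaining array. FBtr0079379 had no fold in control larvae without control rapamycin 3, since both remaining rapamycin arrays were below this limit.

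Of the parts of the rule, size alone was met by fewer FBtr targets than order alone. An effect of at least 0.7 was reached by 1329 FBtr targets in REPTOR knockout larvae and by 1461 in control larvae, and by 632 in both (3.98%). The ratio left 612 of these, and the demand that no rapamycin array lie among the ethanol arrays left the 150. Of the 462 targets left out by the order, 444 had a step of over 1 log2 unit on the raised arrays in both genotypes, and 3 met all parts without the 3 arrays. All rapamycin arrays lay above all ethanol arrays in both genotypes for 1290 FBtr targets (8.13%), whatever their effect. The member closest to the minimum had a smaller effect of 0.707 and the nearest target outside had 0.695. The narrowest distance between the groups was 0.00199 inside and 0 outside, and the ratio was 0.509 inside and 0.475 outside. Of the 95, 74 had a distance under 0.2 in either genotype and 8 had at least 0.5 in both.

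Probes that the rule did not use gave a second reading of some members. For 56 members the array carried further probes, 64 in all. Of these 64 probes, 56 had a positive effect in both genotypes, 28 reached 0.7 in both and 14 met all parts. The median effect of the 64 probes was 1.06 in REPTOR knockout larvae and 0.70 in control larvae, and the median difference from the chosen probe of the same target was 0.40. The median effect of the 64 probes without the 3 arrays was 0.26 in REPTOR knockout larvae and 0.23 in control larvae, and 12 reached 0.7 in both. Further probes of members of the 55 were not alike. FBtr0301417 had effects of 3.04 in REPTOR knockout larvae and 1.58 in control larvae. Its further probes gave 0.38 and 0.44, and -0.16 and -0.02. FBtr0290046 had 2.62 and 1.64, but its further probes gave 0.22 and 0.08, and -0.67 and -0.25. By contrast, that of FBtr0085470 gave 2.65 and 1.73 against 2.66 and 1.79. That of FBtr0302721 gave 1.88 and 1.84 against 2.13 and 1.98. The probes of 1 target read the same RNA samples, and 1 of the 64 was well above background on no array.

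Slides, which are given in the scanner files and hold 4 arrays each, overlap the groups only in part. Slide 3 held all REPTOR knockout rapamycin arrays and 1 REPTOR knockout ethanol array, and within it the median effect of all members was 1.55, with 1.06 for the 55 and 1.86 for the 95. Slide 1 held 1 control rapamycin array, an unraised one, and the 3 control ethanol arrays, and within it the median effect was 0.66, with 1.37 for the 55 and 0.35 for the 95. An effect of 0.7 was reached within slide 3 by 45 of the 55 and 93 of the 95, and within slide 1 by 54 of the 55 and 20 of the 95. On scaled values the median within slide 1 was 0.95, with 1.34 for the 55 and 0.72 for the 95, of which 54 and 48 reached 0.7. On scaled values the median within slide 3 was 2.06, with 1.06 for the 55 and 3.64 for the 95.

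The difference in level between the 2 genotypes, averaged over both foods, is a contrast that the rule did not name, and it was tested on scaled values with limma across 19096 targets, with Benjamini-Hochberg adjustment over all of them. It comes from the same 12 arrays, however. For members near background on ethanol food it follows the difference between the knockout and control effects, which the rule did use, so the counts below describe the members and support nothing about them. A target entered the test if some group had all its arrays well above background for it, which held for 133 of the 150 members. Of the 133, 30 entered through the REPTOR knockout rapamycin group alone, all of them among the 95, and these had to be high there. At an adjusted p of 0.05, 21 of the 133 members differed (15.8%), 7 higher and 14 lower in the REPTOR knockout. Over all tested targets 5308 differed (27.8%), 2401 higher (12.6%) and 2907 lower (15.2%). Under median centring the split was 2 higher and 9 lower among the members and 402 higher and 1545 lower over all targets. With normexp background correction it was 5 and 5 among the members and 573 higher and 876 lower over all targets. Of the 55, 18 differed (32.7%), 7 higher and 11 lower. Of the 78 tested among the other 95, 3 differed (3.85%), all lower. With the test limited to targets well above background on all 12 arrays, 23 of 89 members differed (25.8%), 8 higher and 15 lower, against 5357 of 16822 targets (31.8%). Of these 23, 20 were among the 55 and 3 among the 34 others.

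**Figure D4:**
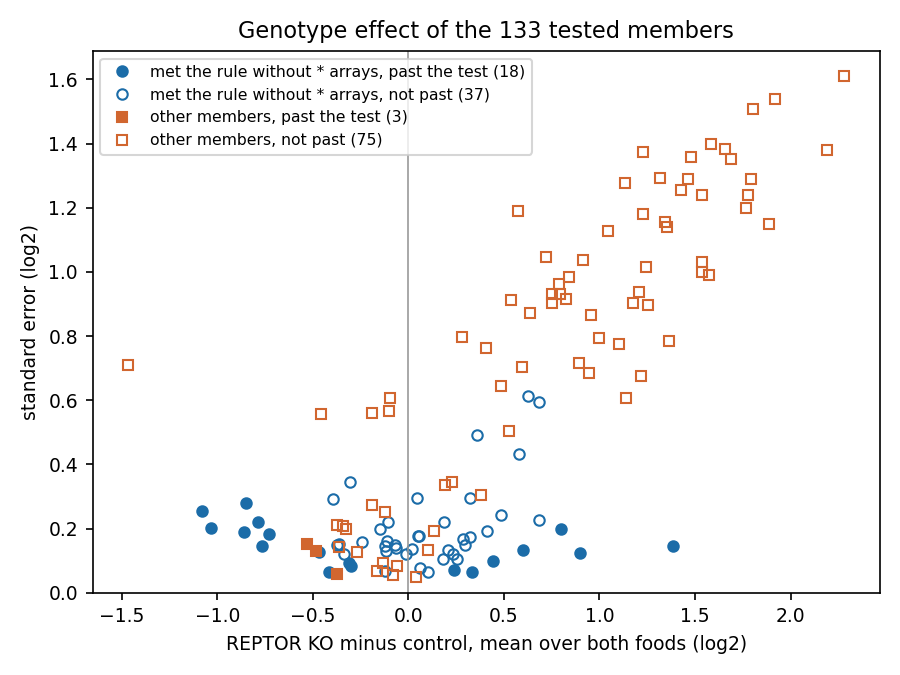
Each point is one of the 133 tested members, with the difference between REPTOR knockout and control larvae averaged over both foods (scaled log2) on the horizontal axis and its standard error from limma on the vertical axis. Filled points passed an adjusted p of 0.05, 18 circles from the 55 and 3 squares from the others. The open squares reach to the upper right, where differences are positive and standard errors high, and they include the 30 members that entered the test through the REPTOR knockout rapamycin group alone.

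Over targets well above background on all 12 arrays, the median difference, REPTOR knockout minus control, was 0.04 for the 55 and -0.09 for the 34 others, against -0.01 for all 16822. The raised arrays are unequally shared between the genotypes, 2 of 6 in the knockout and 1 of 6 in the control. Without them 39 members passed (29.3%), 24 higher and 15 lower, against 3511 of all targets (18.4%, of which 8.45% of those tested were higher). Of the 39, 12 had also passed with all arrays. In that fit the REPTOR knockout rapamycin group has 1 array, and its spread is taken to be that of the remaining groups. The same 133 members were tested, including the 30 that entered through the REPTOR knockout rapamycin group with its raised arrays. The rule had also placed the remaining array above every REPTOR knockout ethanol array in all members. The members' share and direction without the raised arrays therefore cannot be weighed against those of all targets.

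FBtr0071894 and FBtr0339193 were the members with the largest positive differences among those that passed. On rapamycin food FBtr0071894 had scaled log2 signals of 0.93, 1.26 and 0.74 in REPTOR knockout larvae, against 0.21, -0.07 and 0.37 in control larvae. On ethanol food it had -1.22, -1.08 and -0.50 in REPTOR knockout larvae, against -2.69, -2.95 and -3.04 in control larvae. The genotypes did not overlap on either food, and the difference was 1.38 ± 0.15 (SE, limma, adjusted p = 0.000208). FBtr0339193 had 2.47, 2.70 and 2.27 in REPTOR knockout larvae on rapamycin food, against 1.28, 2.01 and 1.82 in control larvae, and on ethanol food 1.04, 1.05 and 1.22 in REPTOR knockout larvae, against 0.10, 0.10 and 0.03 in control larvae. Its genotypes did not overlap on either food, with a difference of 0.90 ± 0.12 (SE, limma, adjusted p = 0.000835).

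FBtr0087789 and FBtr0088863 were the members with the largest negative differences among those that passed. On rapamycin food FBtr0087789 had scaled log2 signals of 2.60, 3.38 and 2.85 in REPTOR knockout larvae, against 3.89, 3.70 and 3.25 in control larvae. On ethanol food it had 0.08, 1.26 and 0.40 in REPTOR knockout larvae, against 1.45, 2.34 and 2.42 in control larvae. The genotypes overlapped on rapamycin food and not on ethanol food, and the difference was -1.08 ± 0.26 (SE, limma, adjusted p = 0.0127). FBtr0088863 had 1.14, 1.504 and 1.45 in REPTOR knockout larvae on rapamycin food, against 2.60, 2.79 and 2.65 in control larvae, and on ethanol food -0.03, 0.58 and -0.49 in REPTOR knockout larvae, against 0.24, 0.87 and 1.21 in control larvae. Its genotypes overlapped on ethanol food only, and the difference was -1.03 ± 0.20 (SE, limma, adjusted p = 0.00534). Without the 3 arrays this difference was -0.998, with an adjusted p of 0.0602 in limma.

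No slide held both genotypes on the same food, so no difference between genotypes within a slide could be had, and the calls did not hold with slide as a block. In that fit 0 of the 133 members passed in limma and 140 of all 19096 targets did, while 10 members (7.52%) and 2310 targets (12.1%) had an unadjusted p under 0.05. The differences with slide as a block were 0.99 for FBtr0071894 (limma, adjusted p = 0.201), 0.36 for FBtr0339193 (0.485), -0.62 for FBtr0087789 (0.772) and -0.60 for FBtr0088863 (0.635). Their standard errors ran from 0.18 to 0.62 with the block, against 0.12 to 0.26 without it.

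On ethanol food alone, where no array had raised roX2, 5 of the 133 members differed between genotypes in limma (3.76%), 4 higher and 1 lower in the REPTOR knockout, against 1142 of all tested targets (5.98%, with 2.73% higher and 3.25% lower). All 5 were among the 55. With slide as a block, which brings in the control rapamycin arrays, 0 members and 10 of all 19096 targets passed in limma on ethanol food. In that fit 3 members (2.26%) and 1329 targets (6.96%) had an unadjusted p under 0.05. Leaving out each ethanol array in turn, without the block, gave 1 to 15 members and 108 to 2557 targets. The 3 REPTOR knockout ethanol arrays lay all above the 3 control ethanol arrays for 26 of the 150 members and all below for 14, against 2466 and 2180 of the 15868 FBtr targets (29.3% for both directions together).

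Targets with other kinds of names were not eligible, but 27 of 9989 met the remaining parts of the rule, 10 of them also without the 3 arrays. Of the 27, 7 had a gene symbol, and both targets of roX1 were among them. RpL30, a protein of the large ribosomal subunit, had deposited log2 signals of 11.29, 11.53 and 11.38 in REPTOR knockout larvae on rapamycin food, against 10.50, 10.95 and 10.21 on ethanol food. In control larvae it had 11.58, 11.54 and 11.48 on rapamycin food, against 10.43, 10.76 and 10.75 on ethanol food. Its effect was 0.84 in REPTOR knockout larvae and 0.89 in control larvae, and 0.82 and 0.91 without the 3 arrays. The long noncoding RNA lncRNA:CR43835 had an effect of 4.70 in REPTOR knockout larvae and 2.29 in control larvae, and of 1.40 and 0.21 without them.

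Among genes of the pathways that rapamycin touches, few had a named target. Of 29 listed genes of TORC1 and its regulators, Wdr24, Wdr59 and mio, all parts of the GATOR2 complex that acts upstream of TORC1, were measured. With rapamycin 1 of these 3 rose and 0 fell in REPTOR knockout larvae, and 2 rose and 0 fell in control larvae (limma, adjusted p under 0.05). Over all tested targets, rapamycin raised 6.18% and lowered 8.81% in REPTOR knockout larvae, and raised 20.8% and lowered 21.4% in control larvae. Of the 3 genes, 2 were lower in the REPTOR knockout than in the control over both foods. Of 35 listed autophagy and lysosome genes, 3 were measured (Atg10, CtsB and Vha13), of which 1 rose and 1 fell in REPTOR knockout larvae and 2 rose and 1 fell in control larvae. The 4 measured genes of cytosolic ribosomal proteins gave 1 higher and 1 lower in REPTOR knockout larvae and 2 higher and 1 lower in control larvae. When the 3 arrays were left out, which leaves 1 rapamycin array in the knockout, 0 of these 10 genes passed in REPTOR knockout larvae in limma, with 5 at an unadjusted p under 0.05, and 8 passed in control larvae. Over all targets that fit called 0.461% higher and 0.628% lower in REPTOR knockout larvae, and 18.3% higher and 18.8% lower in control larvae. These counts are too small to be set against the background.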

How the data were processed

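Scanner output from Agilent Feature Extraction 10.7 (named in the submitters' processing notes) was deposited for each array, and its columns are intensity values of single spots, per the file headers. The deposited value table holds a second intensity, made by a step not given in the sources used here. Set against the scanner files, it tracked quantile-normalised median signals with no background subtraction, and the log2 of these deposited values chose the members. Its column medians ran from 144 to 157.

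For the genotype test, log2 processed signal minus each array's 75th percentile was used. Spots marked as controls or outliers were dropped before averaging over each probe. Each target was represented by its brightest probe. Tests used limma 3.58.1 in R 4.3.3 on all 12 arrays and 4 groups. On simulated data with 200 of 19096 targets changed, this test found 62.7% of changes of 0.5, 80.6% of 1 and 89.4% of 2, with 5 false calls. The simulation drew independent noise for each array, with no effect of slide or of the raised arrays. It therefore cannot show the rate of false calls in the real data.

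The members and lists were chosen with earlier results of these data known. Members named are the highest by mean effect in each set, and the highest and lowest genotype differences that passed, with at most 2 identifiers in each direction because no member had a gene symbol. For the same reason the 12 gene lists could hold no member, so their lack of members says nothing about what the members are.

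Alternatives were median centring, quantile normalisation, the deposited table, normexp (on the median signal, since no mean-signal column was used), slide and replicate blocks, and leaving out arrays. Promoter motifs were not analysed here. P-values measure the spread between the samples the series calls biological replicates.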

Additional observations from a re-analysis of the deposited data

How the results depend on the processing

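The genotype comparison gave similar counts with quantile normalisation (20 members, 3943 targets) and with the deposited table (20 and 4039), and other counts with median centring or another background correction. With each array's median in place of the 75th percentile, 11 members passed (2 higher, 9 lower) and 1947 of all targets (402 higher, 1545 lower), while normexp on the median signal gave 10 members (5 higher, 5 lower) and 1449 targets. Without the 3 arrays with raised roX2 the counts were 39 and 3511, with slide as a block 0 and 140, on ethanol food alone 5 and 1142, and on ethanol food alone with slide as a block 0 and 10 (3 members with an unadjusted p under 0.05 in limma). The comparison on ethanol food was chosen after seeing the data. Leaving out each array in turn gave 13 to 24 members and 3951 to 5673 targets, with 13 members without control ethanol 3 or control rapamycin 2, and on ethanol food alone 1 to 15 members and 108 to 2557 targets. A block for the replicate number gave 19 members and 4364 targets. Of 18 same-numbered pairs, 2 correlated over 0.1 (r from -0.84 to 0.17), so no pairing by number was seen. The raised arrays bear unlike numbers in the 2 genotypes, so these correlations cannot settle whether the numbers pair the arrays.

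On scaled values the members' median rapamycin effect was 2.29 in REPTOR knockout larvae (1.60 to 3.098 leaving out arrays in turn) and 1.81 in control larvae (0.99 to 2.16), and normexp gave 0.55 in control larvae. Under median centring the median rapamycin effect of all tested targets was -0.31 in REPTOR knockout larvae and -0.14 in control larvae, and the tested members lay 1.71 and 1.57 above it. With normexp it was -0.004 in REPTOR knockout larvae and -0.35 in control larvae, and the tested members lay 1.34 and 1.06 above it. On scaled values the size, ratio and order parts of the rule held for 52 members with median centring, 56 with normexp and 92 to 115 leaving out arrays. The whole rule chose 81 members again, 49 with median centring, 150 on the deposited table by construction, and 42 to 89 leaving out arrays (43 without control ethanol 1, 42 and 53 without control rapamycin 1 and 2, 49 without REPTOR knockout rapamycin 3). The causes were not tested. Low signal limits members near background on ethanol food.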
